A study of Rattus norvegicus with 24 samples.

Results

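The comparison described here is the change of a dietary effect with time in rat liver: the difference between a 5% and a 20% protein diet after 4 weeks, minus the same difference after 1 week. It used all 24 arrays of the series, so its members are 24 of 24 animals, chosen by the diet and time in the sample titles. The animals were male Wistar rats, 6 in each of 4 groups (20% protein for 1 week, 5% for 1 week, 20% for 4 weeks and 5% for 4 weeks). The labels name no genetic change and no drug in any group, and ages, and the fenofibrate that the series title names, were not analysed here. Short codes in the sample descriptions give other percentages than the titles, and the design text names 4 weeks only, so the groups rest on the titles and treatment labels. Each array is from a different animal. Because every animal gave 1 array at 1 time, a change over time is a difference between separate animals.

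Liver meets a shortage of dietary protein in several ways that are well known. Cells short of amino acids activate the kinase GCN2, which raises translation of the transcription factor ATF4, and ATF4 turns on genes for amino acid synthesis, amino acid uptake and tRNA charging. The enzymes that break amino acids down and make urea are kept low when little protein is eaten. Growth hormone, whose pulses differ between male and female rats, sets a second group of liver genes that are strongly sex-biased and that appear or disappear as rats mature. Low protein intake is known to disturb the growth hormone and IGF1 axis as well.

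Levels below are log2 of the probe set intensity, and differences are differences of log2 values, given with the standard error of the fitted model (n = 6 per group). A diet effect is 5% minus 20%, a time effect is 4 weeks minus 1 week, and diet by time is the 4-week diet effect minus the 1-week diet effect. A gene was called when its adjusted p was below 0.05 (two-sided limma test, Benjamini-Hochberg over 17245 genes). The median standard error of diet by time was 0.147, against 0.104 for a single diet effect. RMA values carry no detection limit, so folds against groups with levels of about 2 to 5 have no bound. Nothing in the labels says how animals were housed or whether RNA was prepared together, so p-values measure the spread between these animals. In whole liver, fewer cells of a type and less RNA per cell cannot be told apart.

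Albumin, the defining product of hepatocytes, lay between 13.50 and 13.87 in all 24 animals. Arrays of a group correlated at 0.984 to 0.995 over genes, and array medians ran from an intensity of 42.4 to 45.5. Animal 53, on 20% protein for 1 week, stood apart from its group in genes under sex-specific growth hormone control. It lay outside the range of the 5 other animals of its group in 14 of the 17 sex-biased genes measured. The animal was picked after its values were seen, and the same count over all genes was not made. A1bg, which is known as a female-specific gene of rat liver, was at 12.18 in this animal and between 3.94 and 6.54 in the 23 others. Cux2, a female-biased repressor, was at 8.40 against 5.13 to 7.43 in the others. The male-specific Cyp2c11 was at 7.04 in animal 53 and between 11.92 and 12.31 in the other 5 of its group, and Ust5r, a transporter gene, was at 4.49 against 9.27 to 10.14. The label gives this animal as male, and these values go against that label or against its group. Without animal 53, 923 genes were called for diet by time, of which 812 were among the 991 called with it. Contrasts of those of the 17 genes that are named below are therefore given with and without this animal. Cyp3a9, a female-biased P450 kept in another list, is given with all animals only.

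Diet by time was called in 991 genes, 5.75% of those tested, and in most of them the diet effect was small at 1 week and large at 4 weeks. The contrast was above 0 in 611 genes (3.54%) and below 0 in 380 (2.2%). Its median over all genes was 0.003. The size was at least 1, a doubling or halving of the ratio between diets, in 233 genes, 135 above 0 and 98 below. For comparison, the diet effect itself was called higher in 321 genes (1.86%) and lower in 420 (2.44%) at 1 week, and higher in 2308 (13.4%) and lower in 2147 (12.4%) at 4 weeks. Quantile normalization and median centring made calls of their own that were split more evenly, 510 above 0 against 481 below after the first and 476 against 460 after the second. The share above 0 was thus 61.7% as deposited, 51.5% after quantile normalization and 50.9% after centring. Single animals moved these counts. The count above 0 fell to 365 without animal 31, 360 without 32, 394 without 72 and 386 without 73. The count below 0 fell to 227 without animal 31, 219 without 32, 239 without 50, 245 without 52, 242 without 54, 247 without 67, 238 without 72 and 233 without 73.

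The called genes were divided by how their diet effects at 1 and 4 weeks compared. In 535 genes the effect kept its sign and grew, 327 above 0 and 208 below 0. Of these 535 genes, 77 passed the test for diet at both times and 458 at 4 weeks only. In 450 genes the fitted effect changed sign, 281 upwards and 169 downwards. A changed sign was rarely a change between a pair of called effects: 3 of the 450 were called at both times, 393 at 4 weeks only, 26 at 1 week only and 28 at neither, and the 1-week effect was under 0.2 in size in 296. In 6 genes the effect kept its sign and shrank. Over all 991 genes the median size of the diet effect was 0.16 at 1 week and 0.72 at 4 weeks, and 934 had the larger effect at 4 weeks. The number that grew was 339 without animal 31 and 340 without animal 32. The number that changed sign was 680 without animal 29, 250 without 31, 233 without 32, 294 without 49 or 50, 278 without 52, 284 without 54, 273 without 67, 267 without 72 and 258 without 73. The number that faded was 3 without animal 31, 49, 59, 67 or 74.

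**Figure D1:**
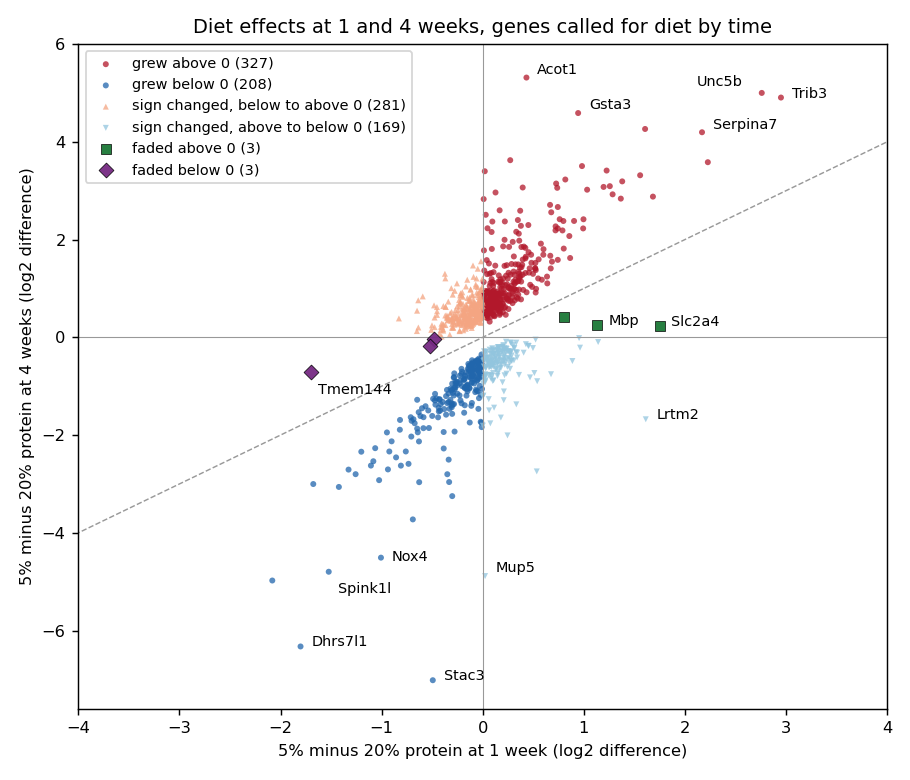
Diet effect (5% minus 20% protein, log2) at 1 week on the horizontal axis against the same effect at 4 weeks on the vertical axis, 1 point per gene, for the 991 genes called for diet by time, coloured by class. Most points lie close to the vertical line at 0, with a median size of 0.16 at 1 week against 0.72 at 4 weeks.

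Genes with a diet effect at 1 week mostly kept it. The effect was called at both times in 515 genes, with the same sign in 512, and in 433 of the 515 diet by time was not called. A 1-week effect without a call at 4 weeks was seen in 226 genes, of which 30 passed the test for diet by time. A missed threshold at 4 weeks is thus no sign that an effect faded.

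Either diet group can produce a diet by time difference, so the change over time was read on each diet. Animal numbers fall into runs that each lie within 1 week, described below. A time effect on a diet therefore cannot be told apart from a difference between runs. At 4 weeks the diets were also spread unevenly over the runs. The 4-week diet effect, and diet by time with it, can thus hold part of a run difference. Between 1 and 4 weeks on 20% protein 176 genes rose (1.02%) and 259 fell (1.5%). On 5% protein 716 genes rose (4.15%) and 713 fell (4.13%). Among the 991 diet by time genes, the time effect was called on 5% protein alone in 515, on 20% alone in 172, on both in 18 and on neither in 286. These counts share their samples with the contrast itself and are a description. The arm with the larger move was 5% protein in 630 genes and 20% protein in 361. Among the 10 genes with the largest contrast the order was the other way, with 7 moving more on the 20% diet. The corresponding numbers were 22 of the 50 largest and 85 of the 233 genes of size 1 or more.

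**Figure D2:**
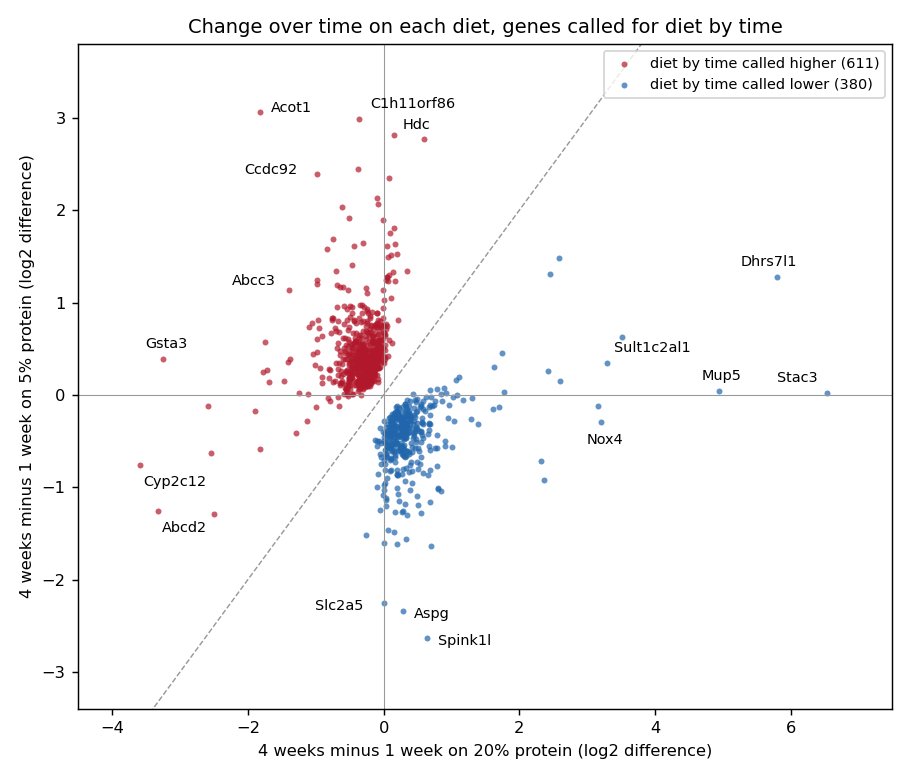
Change from 1 to 4 weeks (log2) on 20% protein on the horizontal axis against the change on 5% protein on the vertical axis, 1 point per gene, for the 991 genes called for diet by time. Points far from 0 along the horizontal axis with almost no change on the vertical axis, such as Stac3 (6.54 against 0.02), are genes that moved on the 20% diet.

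Several of the largest contrasts came from genes that rose with time on 20% protein and had no called change on 5%. Stac3 (probe set 10895915), a gene of muscle excitation-contraction coupling that is also male-biased in rat liver, had a lowest, median and highest level of 4.39, 4.89 and 6.32 on 20% protein at 1 week. The values were 4.43, 4.49 and 4.68 on 5% at 1 week, 10.16, 11.88 and 12.28 on 20% at 4 weeks, and 4.35, 4.51 and 4.84 on 5% at 4 weeks. All 6 animals fed 20% protein for 4 weeks lay far above the other 18, and the remaining groups overlapped. Stac3 rose by 6.54 ± 0.29 on the 20% diet (adjusted p = 7.2e-14) and moved by 0.02 ± 0.29 on the 5% diet (adjusted p = 0.98). Its diet by time was -6.52 ± 0.40 (adjusted p = 1.9e-10), and -6.46 ± 0.42 without animal 53.

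Mup5 (probe set 10877372), which encodes a major urinary protein secreted by the liver, showed the same shape at a lower level. It was at 3.01, 3.21 and 3.63 (lowest, median, highest) on 20% protein and 3.14, 3.17 and 3.53 on 5% at 1 week. At 4 weeks the values were 7.82, 8.01 and 9.06 on 20% protein and 2.95, 3.27 and 3.79 on 5%. The group fed 20% protein for 4 weeks stood alone above the other groups, without overlap. Its contrast was -4.91 ± 0.24 (adjusted p = 2.1e-12), and -4.87 ± 0.25 without animal 53.

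Dhrs7l1 (probe set 10890547), a short-chain dehydrogenase gene, was already spread widely on 20% protein at 1 week, at 3.15, 6.03 and 7.80, against 3.11, 3.96 and 5.30 on 5%. By 4 weeks it stood at 10.91, 11.65 and 11.85 on 20% protein and at 4.48, 5.19 and 6.40 on 5%. The diets overlapped at 1 week and were far apart at 4 weeks. On 5% protein the median rose from 3.96 to 5.19, a change that was not called. Diet by time was -4.52 ± 0.75 (adjusted p = 0.0014), and -3.995 ± 0.60 without animal 53, which held the lowest value of its group.

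Nox4 (probe set 10708485), an NADPH oxidase that makes hydrogen peroxide, went from 4.44, 5.06 and 6.47 to 7.57, 8.68 and 9.12 on the 20% diet. On 5% protein it was at 3.83, 4.17 and 5.45 and then at 3.67, 4.06 and 4.32. The 2 time points did not overlap on 20% protein and overlapped on 5%. The contrast was -3.50 ± 0.46 (adjusted p = 1.1e-04).

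The same arm carried several other genes of the classes that grew downwards or changed sign. Sult1c2al1, a sulfotransferase gene, rose by 3.29 on 20% protein and its contrast was -2.95 ± 0.28 (adjusted p = 7.4e-07). Sez6, best known from neurons, rose by 2.32 and had a contrast of -3.03 ± 0.60 (adjusted p = 0.0056). Cdh17, a cadherin of gut and liver, rose by 3.16 with a contrast of -3.28 ± 0.63 (adjusted p = 0.0045), although its lowest 4-week value on 20% protein, 4.99, lay within the 5% group. Znf57l, a zinc finger gene, rose by 1.70 with a contrast of -1.84 ± 0.18 (adjusted p = 1.2e-06). Cyp3a9, a female-biased P450, rose by 2.42 on the 20% diet, from a median of 4.28 to 7.08, and was at medians of 3.88 and 4.15 on 5%. Its diet by time was -2.17 ± 0.41 (adjusted p = 0.0044). With 4-week animals 22 to 32 alone it was -0.91 and not called.

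Other genes fell with time on 20% protein and stayed high on 5%. Gsta3 (probe set 10922151), a glutathione transferase, was at 7.46, 8.23 and 8.77 on 20% protein and 8.75, 9.03 and 9.46 on 5% at 1 week. At 4 weeks it was at 4.41, 4.91 and 5.25 on 20% protein and 9.30, 9.49 and 9.60 on 5%. Every 20%-fed animal at 4 weeks lay below every other animal. Gsta3 fell by 3.25 on the 20% diet (adjusted p = 4.2e-11) and changed by 0.39 ± 0.19 on the 5% diet (adjusted p = 0.24). Diet by time was 3.64 ± 0.27 (adjusted p = 6.7e-09), so that the ratio between diets went from 1.92-fold to 24.0-fold. The 20% group at 4 weeks lay at 4.41 to 5.25, near levels where a fold has no bound.

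Cyp2c12 (probe set 10930766), the female-specific P450 of adult rat liver, was high in both diets at 1 week, at 11.89, 12.28 and 12.61 on 20% protein and 12.25, 12.36 and 12.65 on 5%. On 20% protein it was at 8.30, 8.41 and 9.59 at 4 weeks, against 10.70, 11.87 and 12.53 on 5%. The diets overlapped at 1 week and did not overlap at 4 weeks. Diet by time was 2.84 ± 0.36 (adjusted p = 8.0e-05), and 2.77 ± 0.37 without animal 53. A second, dimmer probe set of the gene had a contrast of 0.52 that was not called (adjusted p = 0.12).

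Cbr1, a carbonyl reductase, followed the same course with a fall of 1.11 on 20% protein and a contrast of 1.11 ± 0.18 (adjusted p = 0.0013). Abcd2, a transporter of very long fatty acids into peroxisomes, fell by 3.32 on the 20% diet, and its contrast was 2.07 ± 0.56 (adjusted p = 0.031). Because the contrast was smaller than this fall, Abcd2 did not hold its level on the low-protein diet. Its mean fell there as well, though by less. The call for Abcd2 was lost without animal 31, 32, 49, 63 or 67, with an adjusted p of up to 0.058. Members of the Gsta, Cyp2c, Cyp2d, Mup, Acot and sulfotransferase families have close copies, and their probes can pick up more than 1 of them.

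Sex-biased genes under growth hormone did not all behave this way. Of the 17 measured, 3 were called below 0 (Stac3, Mup5, Dhrs7l1) and 1 above 0 (Cyp2c12), and the list median was -0.95 against 0.003 over all genes. The shares called over all genes were 2.2% below and 3.54% above 0. Without animal 53 the list counts were 3 and 2, with a median of -0.99. Hsd3b5, a male-specific steroid enzyme, was at 3.99, 6.87 and 9.11 on 20% protein and 3.92, 4.20 and 4.75 on 5% at 1 week. At 4 weeks it was at 11.50, 12.08 and 12.24 on 20% protein and 8.79, 9.44 and 10.28 on 5%. It therefore rose on both diets, by 5.02 ± 0.56 and 5.18 ± 0.56 (adjusted p = 3.7e-06 and 7.2e-06), and stayed lower on 5% protein at both times. Its diet by time was 0.16 ± 0.79 (adjusted p = 0.94), and 0.75 ± 0.61 without animal 53, when the rise on 20% protein was 4.44 (adjusted p = 8.1e-07).

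Cyp2a2, a male-biased P450, rose on both diets as well, by 2.05 on 20% protein (adjusted p = 0.030) and 2.34 on 5% (adjusted p = 0.0067). Without animal 53 the rise on 20% protein was 1.47 (adjusted p = 0.035). The contrast of Cyp2a2 was 0.30 ± 0.73 (adjusted p = 0.87), and 0.88 ± 0.52 (adjusted p = 0.36) without that animal. Cyp2c13, another male-specific P450, rose by 3.44 on 5% protein (adjusted p = 0.0064). Its diet by time was 1.83 and not called (adjusted p = 0.34) with all animals, and 2.80 ± 0.61 (adjusted p = 0.013) without animal 53, which was at 6.61 while the other 5 of its group were at 11.97 to 12.88. Cyp2c11, the main male-specific P450, had a contrast of -2.57 ± 1.04 (adjusted p = 0.15), and -1.72 ± 0.72 (adjusted p = 0.17) without that animal. Stac3, Mup5 and Dhrs7l1 thus passed the test for diet by time, with a rise on 20% protein and no called one on 5%. Hsd3b5 and Cyp2a2 had called rises on both diets.

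Among 22 genes of growth hormone, IGF and insulin signalling the median diet by time was -0.00, and Grb10, an adaptor that inhibits insulin receptor signalling, was the only one called (1.00 ± 0.25, adjusted p = 0.022), a count near the share over all genes (3.54% above 0). Igf1, the growth factor that growth hormone induces in liver, was lower on 5% protein at 1 week (-0.47 ± 0.08, adjusted p = 6.6e-04) and at 4 weeks (-0.70 ± 0.08, adjusted p = 2.7e-07). Its diet by time of -0.23 ± 0.11 was not called (adjusted p = 0.22). Igfbp1, an IGF-binding protein that rises in fasting, was 3.20 ± 0.64 higher on 5% protein at 1 week and 4.57 ± 0.64 higher at 4 weeks, and its contrast of 1.37 ± 0.90 was not called (adjusted p = 0.41).

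**Figure D3:**
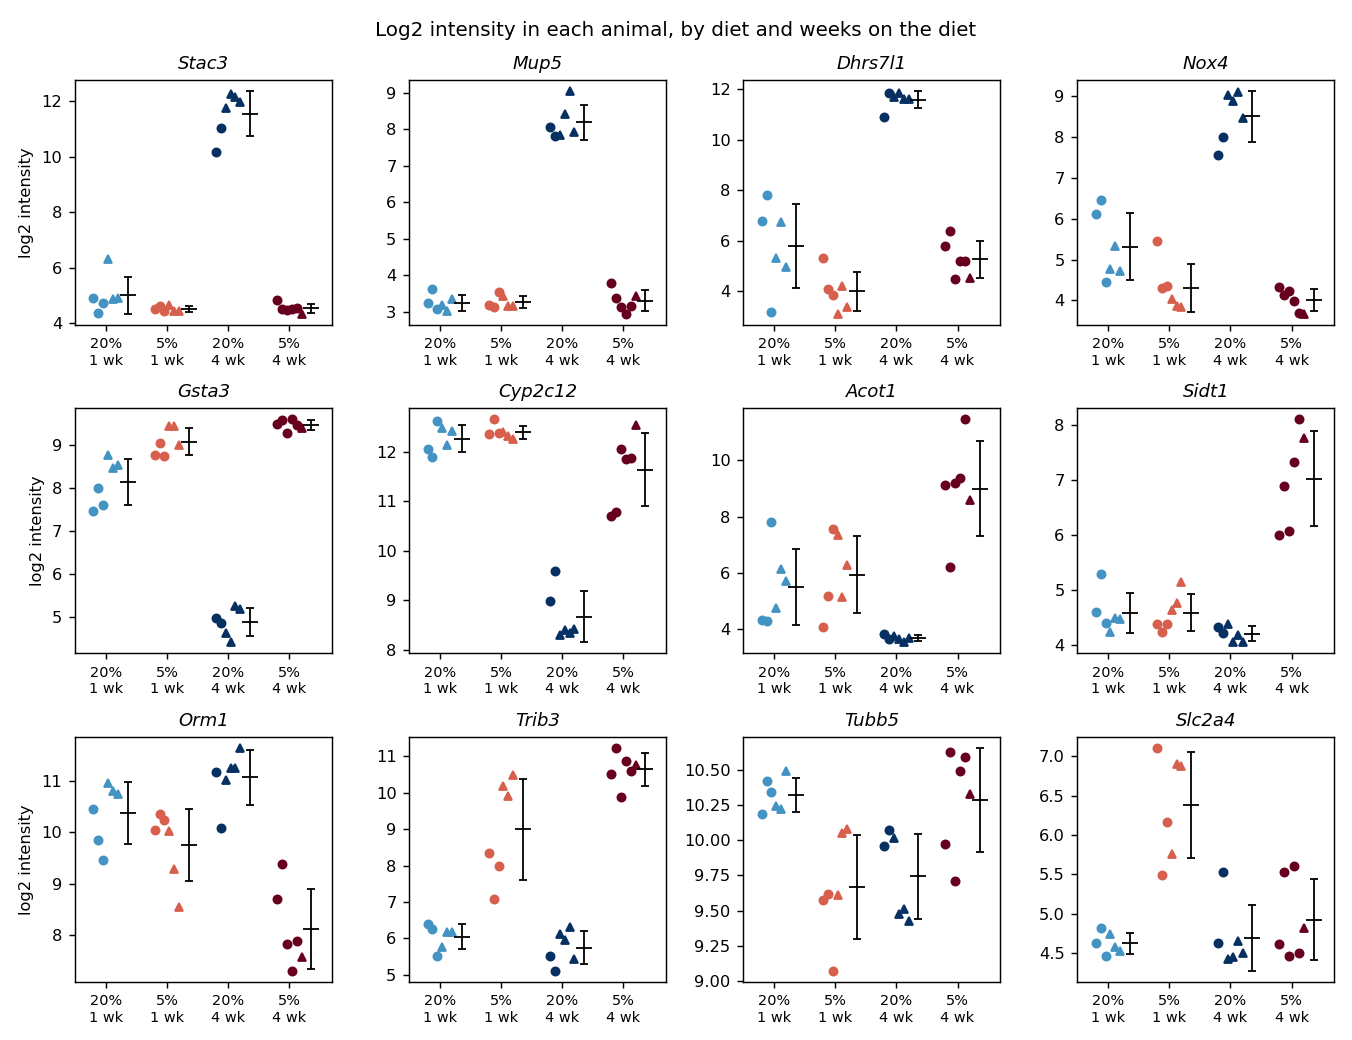
Log2 intensity of 12 genes in each animal, by diet and weeks on the diet, with 6 animals per group and a bar for the mean ± SD. Circles are animals 22 to 54 and triangles animals 59 to 79. In Stac3, Mup5, Dhrs7l1 and Nox4 the group on 20% protein for 4 weeks is the high one, in Gsta3 and Cyp2c12 it is the low one, and in Sidt1 the group on 5% protein for 4 weeks lies above all others. Acot1 and Orm1 differ between diets without overlap at 4 weeks, but their 5% group at 4 weeks overlaps with the 5% group at 1 week.

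A second set of genes moved on 5% protein. Acot1 (probe set 10885857), a cytosolic acyl-CoA thioesterase and classical PPAR alpha target, was at 4.29, 5.23 and 7.80 on 20% protein and 4.08, 5.72 and 7.54 on 5% at 1 week. It was at 3.53, 3.67 and 3.82 on 20% protein and 6.19, 9.16 and 11.46 on 5% at 4 weeks. The diets covered the same range at 1 week and were separated at 4 weeks, where the 5% animals were also widely spread. Acot1 rose by 3.06 ± 0.68 on 5% protein (adjusted p = 0.0071). On 20% protein the change was -1.82 ± 0.68 (adjusted p = 0.17). Acot1 had a diet by time of 4.88 ± 0.96 (adjusted p = 0.0050), and the 5% diet was 39.8-fold above the 20% diet at 4 weeks. That fold has no bound, because the 20% group lay at 3.53 to 3.82. The call was kept with 1-week animals 49 to 54 alone (adjusted p = 0.0068). It was lost with 1-week animals 74 to 79 alone or 4-week animals 22 to 32 alone (adjusted p = 0.058 in each).

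Sidt1, a transmembrane gene related to double-stranded RNA uptake, was near 4.5 at the median in both diets at 1 week (4.48 and 4.51). It was then, at 4 weeks, at 4.05, 4.21 and 4.38 on 20% protein and at 6.01, 7.11 and 8.11 on 5%. No animal of the 5% group at 4 weeks overlapped with any other group. Sidt1 had a contrast of 2.82 ± 0.38 (adjusted p = 1.5e-04). Ccdc92 rose by 2.39 on 5% protein, with a contrast of 3.38 ± 0.60 (adjusted p = 0.0030), and C1h11orf86 rose by 2.99, with a contrast of 3.35 ± 0.79 (adjusted p = 0.016).

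In the other direction, Spink1l, a serine protease inhibitor gene, was at 8.82, 10.50 and 10.79 on 20% protein and 7.44, 8.94 and 9.94 on 5% at 1 week. It then stood at 10.49, 10.90 and 11.29 on 20% protein and 3.96, 6.09 and 7.53 on 5%. Spink1l fell by 2.64 on 5% protein (adjusted p = 0.0023), and its contrast was -3.27 ± 0.71 (adjusted p = 0.011). Slc2a5, the fructose transporter GLUT5, had medians of 9.30 and 9.32 on 20% and 5% protein at 1 week, and 9.07 and 7.35 at 4 weeks. It fell by 2.25 on 5% protein (adjusted p = 6.9e-04), and the contrast was -2.25 ± 0.52 (adjusted p = 0.015). Notum, a secreted inhibitor of Wnt proteins, fell by 1.28 on 5% protein with a contrast of -1.82 ± 0.34 (adjusted p = 0.0041). Its other probe set had a contrast of -0.31.

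Faded effects were few. Slc2a4, the insulin-regulated glucose transporter GLUT4 of muscle and fat, was at 4.46, 4.60 and 4.82 on 20% protein and 5.49, 6.52 and 7.11 on 5% at 1 week. At 4 weeks it was at 4.42, 4.56 and 5.53 on 20% protein and 4.47, 4.72 and 5.61 on 5%. The diets were apart at 1 week and overlapped at 4 weeks. The diet effect was 1.76 ± 0.26 at 1 week (adjusted p = 2.8e-04) and 0.23 ± 0.26 at 4 weeks (adjusted p = 0.58), and diet by time was -1.53 ± 0.36 (adjusted p = 0.016).

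Mbp, known as myelin basic protein, had a diet effect of 1.13 at 1 week and 0.25 at 4 weeks, with a contrast of -0.89 ± 0.22 (adjusted p = 0.023). Its other probe set gave -0.25. Tmem144, a predicted carbohydrate transporter, was the faded effect below 0 with the largest size. It was at 6.60, 6.79 and 6.91 on 20% protein and 4.74, 4.92 and 5.66 on 5% at 1 week, then 6.84, 7.19 and 7.38 on 20% and 5.86, 6.34 and 7.09 on 5%. The gap between diets had narrowed to an overlap, with a contrast of 0.99 ± 0.25 (adjusted p = 0.020). The other 3 were small: Fgfr3, a fibroblast growth factor receptor, at -0.38 (adjusted p = 0.038), Adora2a, an adenosine receptor, at 0.44 (adjusted p = 0.037), and Gstm1, a glutathione transferase, at 0.35 (adjusted p = 0.045). These 3 calls were lost when single animals were left out: Fgfr3 without 23, 31, 49, 50, 52, 53, 54, 59, 63, 67, 73 or 74 (adjusted p up to 0.070), Adora2a without 31, 32, 49, 51, 52, 54, 59, 67, 72, 73, 74 or 75 (up to 0.069), and Gstm1 without 22, 23, 29, 31, 32, 49, 51, 52, 53, 59, 67, 72, 73, 74, 75, 76, 77, 78 or 79 (up to 0.078).

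Reversals with both diet effects called were found in 3 genes. Lrtm2 (probe set 10865077), a leucine-rich repeat membrane gene, was at 4.64, 5.46 and 6.95 on 20% protein and 6.90, 7.13 and 7.67 on 5% at 1 week. By 4 weeks it was at 7.36, 7.96 and 8.47 on 20% protein and 5.08, 6.10 and 7.65 on 5%. The higher group changed from the 5% to the 20% diet, with a slight overlap at each time. The diet effect was 1.61 at 1 week (adjusted p = 0.013) and -1.68 at 4 weeks (adjusted p = 0.0014), and diet by time was -3.29 ± 0.53 (adjusted p = 0.0011). The larger move was on the 20% diet, where Lrtm2 rose by 2.37 (adjusted p = 4.9e-04). On 5% protein its median fell from 7.13 to 6.10.

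Tubb5, a tubulin of the cytoskeleton, reversed upwards. It was at 10.19, 10.30 and 10.49 on 20% protein and 9.07, 9.61 and 10.08 on 5% at 1 week, and at 9.42, 9.73 and 10.07 on 20% and 9.71, 10.41 and 10.63 on 5% at 4 weeks. The diet effect was -0.65 at 1 week (adjusted p = 0.025) and 0.54 at 4 weeks (adjusted p = 0.017), and the contrast was 1.19 ± 0.24 (adjusted p = 0.0054). Resf1, a retroelement silencing factor, had diet effects of 0.40 and -0.32, both close to the threshold, and a contrast of -0.72 ± 0.17 (adjusted p = 0.015). Its other probe set had the opposite sign (0.15).

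Among the remaining genes whose fitted effect turned upwards, Lgals2, a galectin, fell by 0.99 on the 20% diet and had a contrast of 1.45 ± 0.23 (adjusted p = 0.0011). Car2, a carbonic anhydrase, had a contrast of 1.58 ± 0.37 (adjusted p = 0.016), Cgref1 one of 1.57 ± 0.37 (adjusted p = 0.015) and Pcdh7, a protocadherin, one of 1.57 ± 0.41 (adjusted p = 0.027). The 1-week diet effects of these 4 genes lay between -0.37 and -0.02, and none was called. Less steady were Disp1 (contrast 1.67, adjusted p = 0.039) and Tacr1 (1.43, adjusted p = 0.045). The call for Disp1 was lost without any of 14 animals (adjusted p up to 0.076), and that for Tacr1 without any of 15 (up to 0.077). The 1-week diet effect of Disp1 was -1.41 in animals 49 to 54 and 0.66 in 74 to 79.

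The amino acid response was described through 36 measured genes of the ATF4 pathway. Many targets of ATF4 carry a C/EBP-ATF response element, a composite site for ATF4 and a C/EBP partner. The RefSeq promoter table (GRCr8; 250 bases before to 50 after the start) held 30 of the 36, and the letters TGATGNAAN were searched on both strands. Of these 30 promoters 8 held a match (26.7%), against 1328 of 33469 promoters in the table (3.97%). A match is a description of letters, not a site in use. The list was drawn up as targets of ATF4, so its higher share does not bear on diet by time. Among members called for diet by time, the promoters of Vldlr, Slc7a5 and Gdf15 held no match. The windows of 3 genes called for diet by time, and of Fgf21, which was not called, are shown because they carry the element close to the start, with the match in capitals and only bases before the start.
Pycr1, chr10:106420890-106420988, minus strand, 131 bases before the start: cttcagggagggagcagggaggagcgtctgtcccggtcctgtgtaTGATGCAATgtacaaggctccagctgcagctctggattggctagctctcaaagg
Slc7a1, chr12:11664413-11664487, plus strand, 30 bases before the start: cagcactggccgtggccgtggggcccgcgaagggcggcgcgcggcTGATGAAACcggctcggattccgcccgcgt
Trib3, chr3:161275534-161275600, minus strand, 22 bases before the start, match on the opposite strand: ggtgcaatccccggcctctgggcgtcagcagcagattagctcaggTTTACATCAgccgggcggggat
Fgf21, chr1:105221467-105221565, minus strand, 144 bases before the start, match on the opposite strand: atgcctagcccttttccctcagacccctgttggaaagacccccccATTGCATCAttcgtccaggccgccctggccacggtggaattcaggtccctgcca

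Of the 36 amino acid response genes 8 were called above 0 for diet by time (3.54% of all genes were), and none below 0. The list median was 0.63, and 32 members were above 0 and 4 below. The response was already there at 1 week. At that time 18 members were higher on 5% protein (1.86% of all genes were), and the median effect was 0.54. At 4 weeks 27 were higher (13.4% of all genes) and 1 lower (12.4% of all genes), with a median of 1.26. Pycr1, which makes proline, was at 5.77, 6.29 and 7.37 on 20% protein and 7.25, 7.70 and 8.27 on 5% at 1 week. It was at 5.37, 5.88 and 6.07 on 20% and 7.98, 8.72 and 9.07 on 5% at 4 weeks. The diets nearly separated at 1 week and were far apart at 4 weeks, with a contrast of 1.64 ± 0.32 (adjusted p = 0.0048).

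Vldlr, a lipoprotein receptor that ATF4 induces, had medians of 4.87 and 5.89 on 20% and 5% protein at 1 week and 4.56 and 7.06 at 4 weeks, with no overlap at either time. Its contrast was 1.42 ± 0.27 (adjusted p = 0.0045). Slc7a5, the large neutral amino acid transporter, overlapped between diets at 1 week (medians 7.94 and 8.61) and not at 4 weeks (6.80 and 9.20), with a contrast of 1.85 ± 0.38 (adjusted p = 0.0066). The next 2 genes were picked after their values were seen. Aldh18a1, the first enzyme of proline synthesis, grew from a diet effect of 1.68 to 2.88 (contrast 1.20 ± 0.29, adjusted p = 0.018). The arginine transporter Slc7a1 grew from 2.23 to 3.58 (contrast 1.36 ± 0.38, adjusted p = 0.035), a call that was lost without animal 23, 31, 32, 49, 51, 52, 53, 54, 59, 72 or 73 (adjusted p up to 0.063).

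Trib3, a pseudokinase that feeds back on ATF4, was at 5.52, 6.18 and 6.40 on 20% protein and 7.09, 9.13 and 10.49 on 5% at 1 week, then at 5.12, 5.73 and 6.31 on 20% and 9.89, 10.68 and 11.24 on 5%. The diets did not overlap at either time. The contrast was 1.96 ± 0.58 (adjusted p = 0.048), and it missed the threshold when any of 19 animals was left out (22, 23, 29, 30, 31, 32, 49, 50, 51, 52, 54, 59, 63, 67, 72, 73, 77, 78 and 79), with an adjusted p of up to 0.089. Asns, asparagine synthetase, and Fgf21, a liver hormone of protein restriction, were higher on 5% protein at both times and were not called for diet by time (1.56 ± 0.68, adjusted p = 0.19, and 1.45 ± 0.76, adjusted p = 0.28). The list count was 4 in place of 8 without animal 23, 31, 32, 49, 51, 52, 59, 72 or 73.

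Genes of protein synthesis were also called above 0. All 19 measured aminoacyl-tRNA synthetases, which charge tRNAs with amino acids, had a contrast above 0, with a median of 0.42, and 4 were called. The share called above 0 over all genes was 3.54%. Kars1 had 0.42 ± 0.09 (adjusted p = 0.011) and Vars1 0.88 ± 0.21 (adjusted p = 0.017). The diet effect was called in 6 of the 19 at 1 week and in 16 at 4 weeks. The count was 2 without animal 23, 31, 32, 49, 50, 51, 52, 54, 67, 72, 73 or 74, and 7 without animal 26. Of 56 cytosolic ribosomal protein genes 22 were called, all above 0, with a list median of 0.32 and 53 above 0. They were higher on 5% protein in 35 genes at 1 week (median 0.31) and in 54 at 4 weeks (median 0.65). Of all genes 1.86% were called higher at 1 week and 13.4% at 4 weeks. Rplp0 was at 11.65, 11.72 and 11.75 on 20% protein and 11.94, 12.08 and 12.22 on 5% at 1 week, and at 11.49, 11.53 and 11.68 on 20% and 12.24, 12.34 and 12.41 on 5% at 4 weeks. The diets were apart at both times, and the gap widened by 0.40 ± 0.08 (adjusted p = 0.0056). The ribosomal count was 9 without animal 31, 11 without 32, 12 without 54 or 72, and 14 without 67 or 73.

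Calls in amino acid breakdown had the opposite sign. Of 47 genes of the urea cycle and amino acid catabolism 14 were called below 0 (2.2% of all genes were) and none above, with a median of -0.48 and 42 below 0. At 1 week 5 were lower on 5% protein (2.44% of all genes were), and at 4 weeks 31 (12.4% of all genes). Between these times 17 of the 47 fell on 5% protein (4.13% of all genes), while 1 rose on 20% (1.02%). Amdhd1, an enzyme of histidine breakdown, was at 9.62, 9.89 and 10.71 on 20% protein and 9.59, 10.17 and 10.28 on 5% at 1 week. By 4 weeks it stood at 10.55, 10.73 and 11.12 on 20% and 8.35, 9.19 and 9.95 on 5%. The diets overlapped at 1 week and were apart at 4 weeks, with opposite called moves of 0.79 on 20% and -0.77 on 5% protein. Its contrast was -1.56 ± 0.30 (adjusted p = 0.0045).

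Gpt, alanine aminotransferase, had a contrast of -1.89 ± 0.39 (adjusted p = 0.0067), and Gnmt, which consumes methyl groups of methionine, -1.83 ± 0.40 (adjusted p = 0.011). Further called members, picked after their values were seen, were Hal, the first enzyme of histidine breakdown (-1.05 ± 0.23, adjusted p = 0.013), Prodh2 of hydroxyproline breakdown (-1.08 ± 0.27, adjusted p = 0.022) and Slc25a13, the mitochondrial aspartate and glutamate carrier that feeds the urea cycle (-0.82 ± 0.20, adjusted p = 0.022). The list count was 9 without animal 23, 52 or 54, and 8 without 32 or 73.

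**Figure D4:**
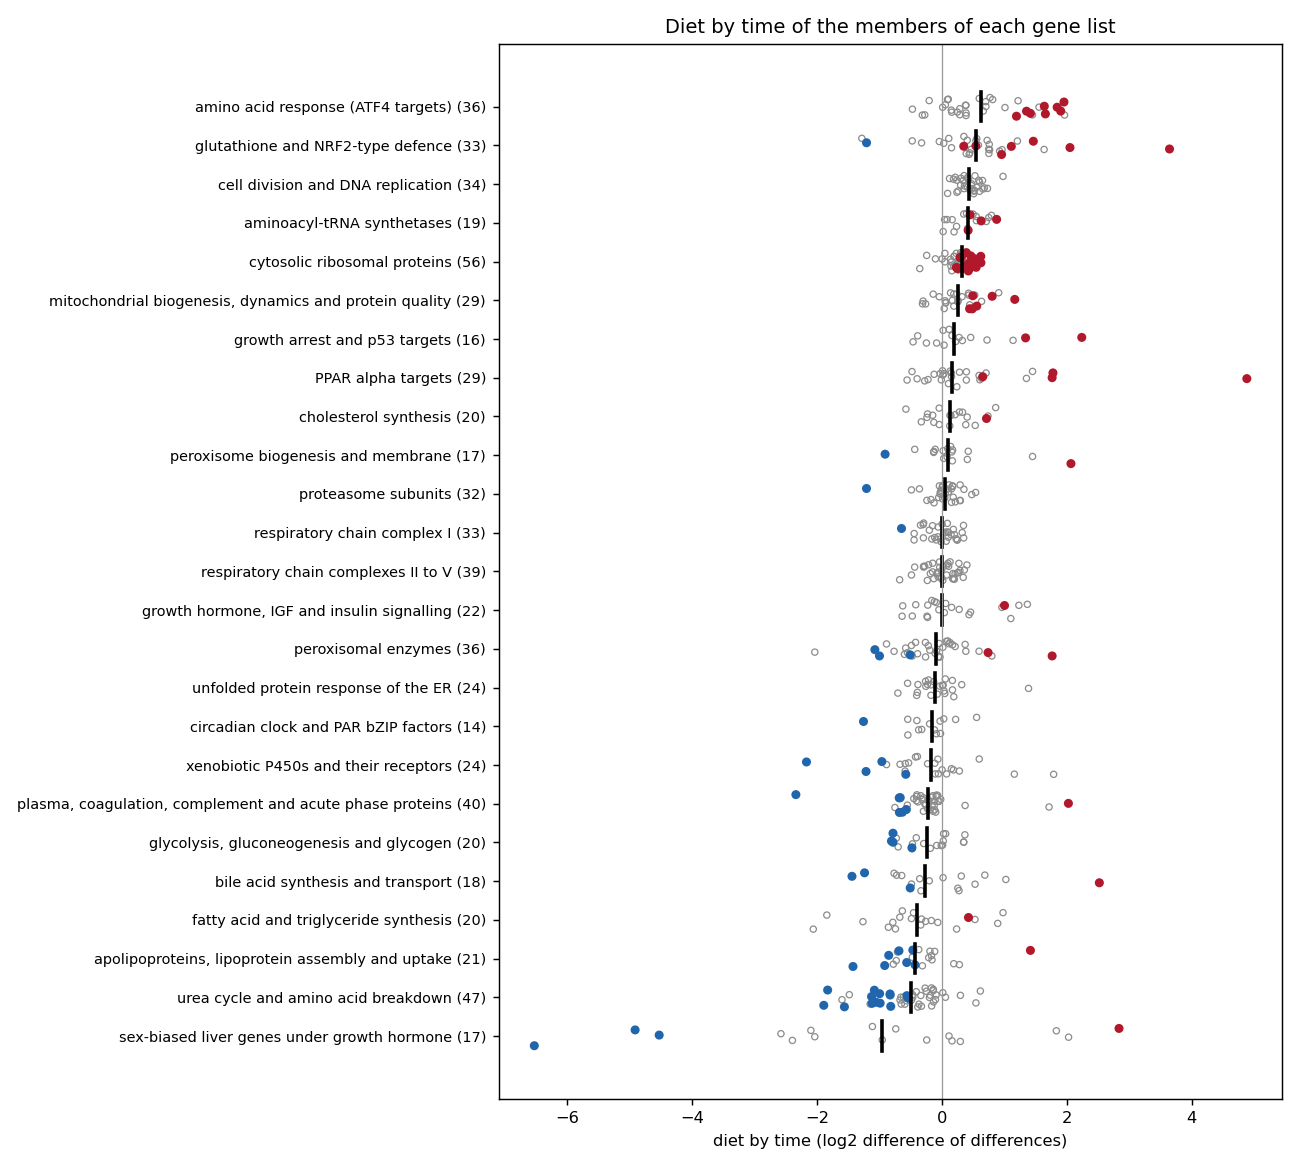
Diet by time (log2 difference of differences) of every measured member of 25 gene lists, 1 point per gene, filled red (above 0) or blue (below 0) where called, with the list median as a black line and the number of members in brackets. Amino acid response genes (median 0.63) and ribosomal proteins (0.32) lie mainly above 0, and amino acid breakdown (-0.48) and lipoprotein genes (-0.43) mainly below.

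Among 40 plasma, coagulation, complement and acute phase protein genes, 37 had a contrast below 0, 6 were called below and 1 above, and the median was -0.23. The shares called over all genes were 2.2% below and 3.54% above 0. The count below 0 was 14 without animal 22 and 10 without animal 26, and the count above was 2 without animal 53 or 76. Orm1, an acute phase glycoprotein, was at 9.46, 10.60 and 10.96 on 20% protein and 8.55, 10.03 and 10.36 on 5% at 1 week. At 4 weeks it was at 10.08, 11.22 and 11.65 on 20% protein and 7.30, 7.84 and 9.38 on 5%. Diets overlapped at 1 week and not at 4 weeks, and Orm1 fell by 1.64 on 5% protein (adjusted p = 0.0054). Its contrast was -2.34 ± 0.50 (adjusted p = 0.0091). The contrast was -3.26 with 1-week animals 49 to 54 alone and -1.41 with 74 to 79 alone. The call was lost with 1-week animals 74 to 79 alone or 4-week animals 22 to 32 alone.

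Itih1, an inter-alpha-trypsin inhibitor chain, had -0.68 ± 0.12 (adjusted p = 0.0039). The member called above 0 was Serpina7, which carries thyroid hormone in blood. It was at 7.43, 8.84 and 9.06 on 20% protein and 10.33, 10.75 and 11.28 on 5% at 1 week, and at 5.77, 6.72 and 8.11 on 20% and 10.64, 11.06 and 11.29 on 5% at 4 weeks. It fell by 1.78 on the 20% diet (adjusted p = 0.0023), against a change of 0.25 ± 0.32 on 5% (adjusted p = 0.73), and its contrast was 2.03 ± 0.46 (adjusted p = 0.013).

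Of 21 genes of apolipoproteins and lipoprotein handling 7 were called below 0 and 1 above (Vldlr), against 2.2% and 3.54% of all genes. The list median was -0.43. On 5% protein 10 of the 21 fell between 1 and 4 weeks (4.13% of all genes did). Lrp1, a clearance receptor for lipoprotein remnants, had -0.91 ± 0.18 (adjusted p = 0.0063) and Lipc, hepatic lipase, -0.69 ± 0.17 (adjusted p = 0.018). The count below 0 was 4 without animal 31, 50, 52, 63, 72, 73 or 79, and 3 without 32, 49, 54 or 59.

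Bile acid genes were called in both directions, 1 of 18 above 0 and 3 below, against 3.54% and 2.2% of all genes. Without animal 53 the count above 0 was 2. Abcc3, which exports conjugates from the hepatocyte into blood, was at 7.54, 8.25 and 8.62 on 20% protein and 8.33, 9.23 and 9.71 on 5% at 1 week. It was at 6.69, 6.79 and 6.99 on 20% protein and 9.90, 10.29 and 10.88 on 5% at 4 weeks. The time effect was called on both diets in opposite directions, -1.39 on 20% and 1.13 on 5%, and the contrast was 2.52 ± 0.29 (adjusted p = 1.8e-05). The uptake transporter Slco1a4 (-1.44 ± 0.29, adjusted p = 0.0056) and the bile acid CoA ligase Slc27a5 (-1.24 ± 0.32, adjusted p = 0.025) were called below 0. In sugar metabolism 4 of 20 genes were called, all below 0 (2.2% of all genes were). Among the 4 were the fructose kinase Khk (-0.81 ± 0.19, adjusted p = 0.017), the glucose-6-phosphate transporter Slc37a4 (-0.78 ± 0.19, adjusted p = 0.018) and pyruvate carboxylase Pc (-0.78 ± 0.18, adjusted p = 0.015).

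Defence genes of the glutathione and NRF2 type were called above 0 in 7 of 33 and below in 1, with a median of 0.55 and 28 above 0. The shares called over all genes were 3.54% above and 2.2% below 0. The count above 0 was 11 without animal 26, and the count below 0 was 2 without animal 29, 59, 75 or 76 and 0 without 23, 31, 32, 49, 50, 51, 52, 54, 63, 67, 72 or 73. At 1 week 2 were higher and 5 lower on 5% protein, and at 4 weeks 16 were higher and 5 lower. Of all genes 1.86% were higher and 2.44% lower at 1 week, and 13.4% and 12.4% at 4 weeks. Gsta3 and Cbr1, described above with their fall on 20% protein, are members. The exporter Abcc4 was at 8.18, 8.41 and 8.62 on 20% protein and 8.55, 8.78 and 9.06 on 5% at 1 week, and at 7.51, 7.97 and 8.13 on 20% and 9.22, 9.85 and 10.34 on 5% at 4 weeks. It rose by 0.96 ± 0.16 on the 5% diet (adjusted p = 7.1e-04), its change on the 20% diet was -0.50 ± 0.16 (adjusted p = 0.094), and its contrast was 1.46 ± 0.22 (adjusted p = 6.3e-04). Akr7a3, an aldehyde reductase picked after its values were seen, had 2.05 ± 0.41 (adjusted p = 0.0054). Among 24 xenobiotic P450s and their receptors 4 were called, all below 0, against 2.2% of all genes. They were Cyp3a9, described earlier, and 3 Cyp2d genes, such as Cyp2d4 (-0.96 ± 0.18, adjusted p = 0.0041). That count was 2 without animal 23, 32, 72 or 73.

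Of 29 PPAR alpha targets 4 were called above 0 (3.54% of all genes were) and none below, with a median of 0.16. The count was 8 without animal 23. Acot2, the mitochondrial neighbour of Acot1, was at 9.73, 10.06 and 11.08 on 20% protein and 9.85, 10.44 and 10.67 on 5% at 1 week. The 4-week values were 8.69, 9.08 and 9.86 on 20% protein and 10.97, 11.18 and 11.58 on 5%. Its contrast was 1.78 ± 0.28 (adjusted p = 0.0010). Hadhb, of the mitochondrial trifunctional protein, had 0.66 ± 0.14 (adjusted p = 0.011), and Crat, carnitine acetyltransferase, picked after its values were seen, 1.77 ± 0.48 (adjusted p = 0.032). The call for Crat was lost without animal 31, 32, 49, 67, 72, 73 or 79 (adjusted p up to 0.061). Ppara itself was at 0.11 ± 0.30 and Cpt1a, the entry step of mitochondrial oxidation, at 0.39 ± 0.54 (adjusted p = 0.89 and 0.74).

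The title of the series names peroxisomes and mitochondria. Among 36 peroxisomal enzymes 2 were called above and 3 below 0, with a median of -0.09. The count above 0 is near the share over all genes (3.54%), and 2.2% of all genes were called below. Xdh, xanthine dehydrogenase, was at 10.10, 10.42 and 10.51 on 20% protein and 9.36, 9.46 and 10.05 on 5% at 1 week, then at 10.20, 10.63 and 10.81 on 20% and 8.03, 8.83 and 9.07 on 5%. The gap between diets widened, with a contrast of -1.07 ± 0.21 (adjusted p = 0.0045). Those counts turned on single animals: the count above 0 was 1 without animal 26, 50, 51, 52, 53, 54, 74 or 78 and 0 without 31, 32, 49, 67, 72, 73 or 79, and the count below 0 was 5 without 22, 6 without 26 and 1 without 32 or 73. Catalase (Cat) was at -0.08 ± 0.09 (adjusted p = 0.65). Pex5, the import receptor for peroxisomal enzymes, was at -0.43 ± 0.20 (adjusted p = 0.20), and Pex11a, which helps peroxisomes divide, at 1.45 ± 0.51 (adjusted p = 0.094).

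Respiratory chain genes had medians of 0.01 over 33 genes of complex I and -0.00 over 39 of complexes II to V. No gene of complexes II to V was called, and 1 of complex I was (Ndufa1, -0.65 ± 0.18, adjusted p = 0.039). That call was lost without animal 23, 31, 49, 50, 51, 52, 53, 54, 59, 67, 72, 73 or 74, with an adjusted p of up to 0.071. In the list of mitochondrial biogenesis, dynamics and protein quality 6 of 29 genes were called above 0 and none below. The shares called over all genes were 3.54% above and 2.2% below 0. Lonp1, a matrix protease, was at medians of 9.75 and 10.18 on 20% and 5% protein at 1 week and 9.83 and 11.25 at 4 weeks. It rose by 1.24 on 5% protein (adjusted p = 7.7e-05), and its contrast was 1.17 ± 0.22 (adjusted p = 0.0044). The protease subunit Clpp had 0.56 ± 0.10 (adjusted p = 0.0023) and Afg3l2, an inner membrane protease, 0.50 ± 0.09 (adjusted p = 0.0043). The called members are known as proteases or chaperones, a feature seen after their values. Ppargc1a, the coactivator of mitochondrial biogenesis, was at 0.91 ± 0.39 (adjusted p = 0.18).

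None of 34 cell division genes passed the test for diet by time. Their contrasts were all above 0, with a median of 0.44. At 1 week 9 of them were lower on 5% protein (median -0.57) and at 4 weeks 2 (median -0.11). Of all genes 2.44% were lower at 1 week and 12.4% at 4 weeks. Aurka, a mitotic kinase, had a diet effect of -0.53 at 1 week (adjusted p = 0.014) and -0.01 at 4 weeks, and a contrast of 0.52 ± 0.18 (adjusted p = 0.079). Of 16 growth arrest and p53 target genes 2 were called above 0 (3.54% of all genes were). One was Unc5b, a netrin receptor, at 4.89, 5.43 and 5.75 on 20% protein and 6.42, 8.28 and 9.75 on 5% at 1 week, and 5.13, 5.23 and 5.58 on 20% and 9.72, 10.42 and 10.64 on 5% at 4 weeks. Its contrast was 2.24 ± 0.59 (adjusted p = 0.027), and 0.050 was the adjusted p without animal 32. The other was Gadd45a, a growth arrest gene (1.34 ± 0.37, adjusted p = 0.033), which was not called without animal 23, 49, 50, 59, 72 or 73 (adjusted p up to 0.062).

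Further lists had a single call or none, counts too small to read against the 3.54% above and 2.2% below 0 over all genes. They were fatty acid and triglyceride synthesis (1 of 20 above 0, median -0.39), cholesterol synthesis (1 of 20 above 0, median 0.14), the unfolded protein response (0 of 24, median -0.10), the proteasome (1 of 32 below 0, median 0.05), and the circadian clock (1 of 14 below 0, median -0.16). The fatty acid count was 0 without animal 22, 23, 30, 31, 32, 49, 51, 52, 54, 59, 67, 72, 73, 74, 77 or 79 and 2 without 26 or 53, the proteasome count 0 without 32, 51, 52, 54, 59, 63, 73 or 79, and the clock count 0 without 23, 29, 30, 31, 32, 49, 51, 52, 53, 54, 59, 63, 72, 74, 77, 78 or 79. The cholesterol gene called was Fdps, farnesyl diphosphate synthase (0.71 ± 0.16, adjusted p = 0.011). Scd, a fatty acid desaturase, was not called (-1.26 ± 0.50, adjusted p = 0.14).

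Markers of other cells were read beside these results. Of all genes 12.4% were lower on 5% protein at 4 weeks and 2.44% at 1 week, and 4.13% fell with time on 5%. For diet by time 3.54% of all genes were called above 0 and 2.2% below. Of 11 Kupffer cell and macrophage markers 9 were lower on 5% protein at 4 weeks and none at 1 week, and 7 fell with time on 5%. Their mean log2 level per animal had a lowest, median and highest value of 9.14, 9.34 and 9.71 on 20% protein and 8.80, 9.27 and 9.53 on 5% at 1 week. The 4-week values were 8.96, 9.02 and 9.72 on 20% protein and 8.42, 8.61 and 8.70 on 5%. The 5% group at 4 weeks lay below every other group, with 1 marker called for diet by time, the complement gene C1qa (-0.69 ± 0.18, adjusted p = 0.027). That count was 0 without animal 31, 32, 52, 72 or 73, and 2 without 78. Erythroid markers (8 measured, none called, median 0.24) were lower on 5% protein in 4 at 1 week and in 3 at 4 weeks. All 8 stellate cell markers had a contrast below 0 (median -0.42) with no call, and 3 were lower on 5% protein at 4 weeks. The 9 hepatocyte markers had no call (median -0.10) and 3 were lower at 4 weeks, and the 9 lymphocyte markers had none (median -0.25) with 2 lower at 4 weeks. Neutrophil (7), adipocyte (4), acinar (5) and muscle (3) markers had no call for diet by time or for diet at either time. The part of these cells in the results was not tested. Of 5 bile duct markers 1 was called above 0 (0 without animal 31, 32, 49, 50, 51, 53, 54, 59, 63, 67, 72, 73, 74 or 75, and 2 without 22, 26 or 77). The bile duct median was 0.65. Of these markers 3 were higher on 5% protein at 4 weeks (13.4% of all genes were) and none at 1 week. Of 5 endothelial markers 1 was called below 0 (0 without animal 31, 32, 50, 51, 52, 63, 67, 72 or 75).

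Animal numbers fall into 4 runs, and each run lies within 1 week: 22 to 32 and 59 to 73 at 4 weeks, 49 to 54 and 74 to 79 at 1 week. What a run stands for is not labelled. The 1-week diet effect differed between its runs in 1258 genes. At 4 weeks the count was 5, but it rests on a single 5% animal in run 59 to 73 and cannot be set against the 1-week count. All 991 genes kept the sign of diet by time when either time point was limited to a single run and the other kept all animals. The genes were chosen from all animals together, so this is a description and not a check across runs. The number still called was 861 with 1-week animals 49 to 54, 210 with 74 to 79, 167 with 4-week animals 22 to 32, 442 with 59 to 73, and 69 in all 4. Run 22 to 32 holds 5 of the 5% and 2 of the 20% animals, and run 59 to 73 holds 1 and 4. The 4-week diet effect, and diet by time with it, is therefore partly mixed with a difference between these runs. Values from run 59 to 73 also assume that its lone 5% animal varies like the other groups. With run within week in the model, 311 genes were called above 0 and 175 below, against 611 and 380 without it.

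Medians of some gene groups depended on the run of the 1-week animals. Called counts fell over all genes as well. With 1-week animals 49 to 54, 1778 genes were called above 0 and 1090 below. With animals 74 to 79 the numbers were 232 and 131. A lower list count with 74 to 79 is therefore no sign of a change particular to that list. In amino acid response genes the median was 0.74 with 15 called against animals 49 to 54, and 0.30 with 1 called against 74 to 79. In amino acid breakdown it was -0.74 with 28 called, against -0.28 with 2 called. Ribosomal proteins kept their median (0.32 and 0.31), with 21 and 4 called. Respiratory complexes II to V went from -0.20 with 11 called below 0 to 0.23 with 1 called above 0, and the unfolded protein response from 0.39 with 7 above and 1 below to -0.46 with 5 below.

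Trib3 had a 1-week diet effect of 1.74 in animals 49 to 54 and of 4.15 in animals 74 to 79. Its diet by time was accordingly 3.16 (adjusted p = 4.4e-05) and 0.75 (adjusted p = 0.36). Unc5b behaved alike, with 1-week effects of 1.14 and 4.37 and contrasts of 3.85 and 0.63. By contrast, Stac3 had contrasts of -6.88 and -6.17, Mup5 -4.86 and -4.96, Gsta3 3.42 and 3.87, and Lrtm2 -3.28 and -3.29 with the same runs. Of the 79 named genes called with all animals, 16 kept their call under each setting that could be run on them: Gsta3, Cyp2c12, Sidt1, Stac3, Dhrs7l1, Nox4, Sez6, Sult1c2al1, Mup5, Lrtm2, Znf57l, Amdhd1, Abcc4, Cbr1, Acot2 and Abcc3. Mup5 and Sult1c2al1 were removed by the filter on dim genes, so they were tried under 15 of the 16 settings.

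**Figure D5:**
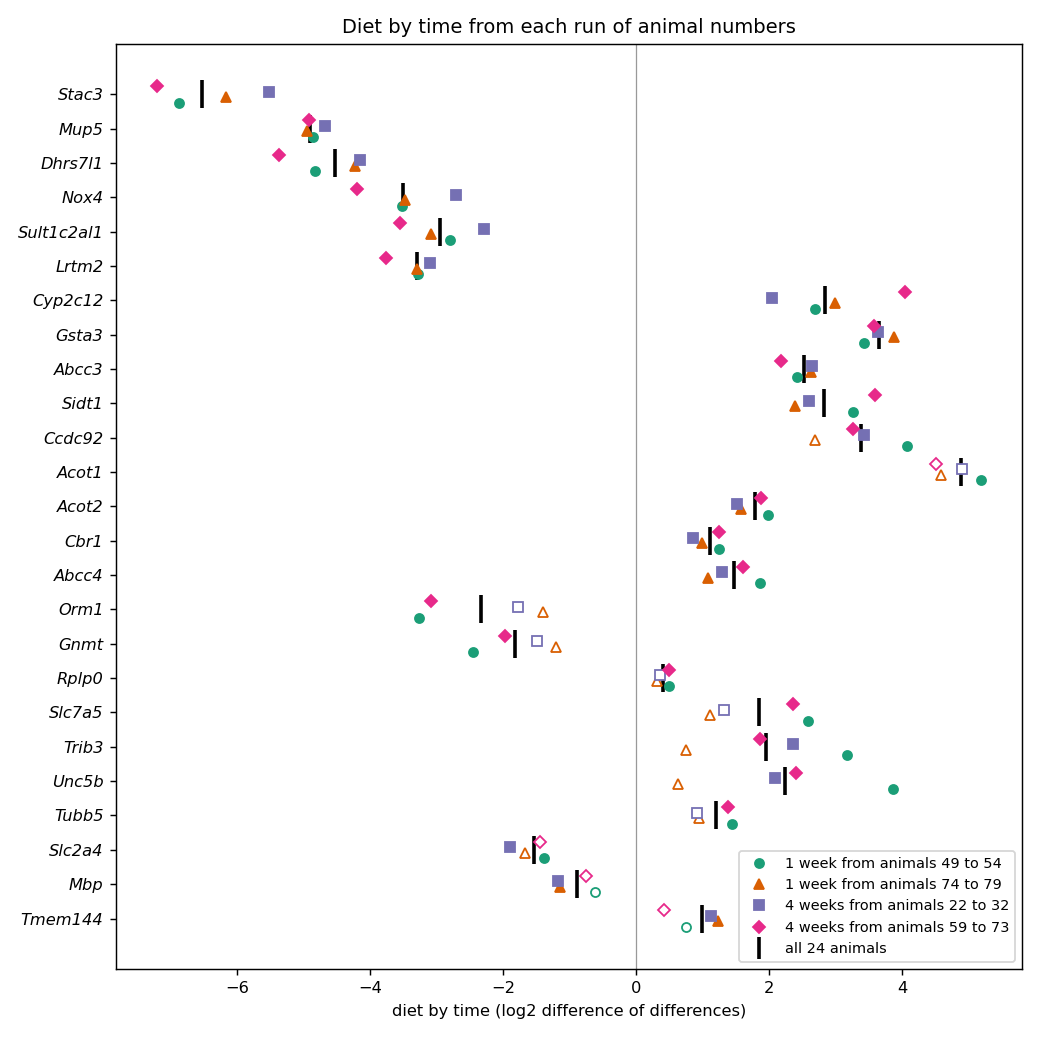
Diet by time (log2 difference of differences) of 25 genes when 1 week or 4 weeks is taken from a single run of animal numbers, filled where the adjusted p is below 0.05, with the value over all 24 animals as a black bar. Mup5 runs from -4.96 to -4.68 and Stac3 from -7.20 to -5.52, while Trib3 (3.16 and 0.75) and Unc5b (3.85 and 0.63) depend on the run of the 1-week animals.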

How the data were processed

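Per the labels, biotin-labelled cDNA was made from total liver RNA and hybridised to Affymetrix whole-transcript arrays, 1 per animal. The authors deposited probe set intensity after RMA on the unlogged scale, per the sample descriptions and the submitters' processing notes, which name RMA without a version. Intensities ran from 3.27 to 15793. From these the log2 of the deposited intensity was computed, with no further normalization. Of 29214 probe sets, 18644 had 1 gene symbol, 962 several and 9608 none, and only the first kind was used. The probe set with the highest mean was kept for each gene, which left 17245 genes. Looked up by Entrez identifier, 17108 symbols matched RefSeq. Means of the 4 groups were fitted in a single model with limma 3.58.1 (lmFit, eBayes) in R 4.3.3 with version 1.17.8 of data.table, with 20 residual degrees of freedom, and the procedure was tested on simulated data. For arrays, their number limits the precision.

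Named genes are the 6 genes with the largest contrast in each class (grew, faded or changed sign, above or below 0), all reversals with both diet effects called, the 3 members with the smallest p in each gene list, and 17 fixed genes. Other list members are examples picked after their values were seen, as was animal 53. The comparison, the gene lists and the tests were chosen with earlier results of these data known. Lists are described by counts and medians, with no set test.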

Additional observations from a re-analysis of the deposited data

Results flagged for a closer look

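In 456 groups of 6 animals (114 named genes in 4 groups), 25 held 1 animal far from the other 5 by Dixon's test. Chance alone flags about 1 group in 20. On 20% protein at 1 week, animal 53 was far from the rest in Spink1l (log2 intensity 8.82), Pcdh7 (7.20), Grb10 (6.21), Cyp2c11 (7.04) and Scd (11.08), animal 52 in Sidt1 (5.30), animal 77 in Stac3 (6.32) and animal 78 in Vars1 (7.69). On 5% protein at 1 week they were animal 50 in Cyp2c12 (12.65), animal 49 in Nox4 (5.45) and Acot2 (9.85), and animal 54 in Rpl11 (11.92) and Xdh (10.05). On 20% protein at 4 weeks they were animal 29 in Dhrs7l1 (10.91), Gpt (7.27), Igfbp3 (8.78), Cyp2c11 (12.46) and Scd (12.86), and animal 30 in Slc2a4 (5.53), Pex11a (6.80) and Unc5b (5.58). On 5% protein at 4 weeks they were animal 23 in Ndufa4 (11.73) and Ppargc1a (7.33), animal 32 in Slc37a4 (10.13) and animal 26 in Psmd2 (10.49).

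The diet effect differed between 1 and 4 weeks, by the limma test of the contrast, upwards in 611 genes and downwards in 380. The 1-week diet effect differed between the 2 runs of animal numbers (49 to 54 minus 74 to 79, limma test of the difference) in 10 named genes. The differences were -0.67 in Znf57l, -2.07 in Disp1, -1.47 in Slc7a5, -0.65 in Farsa, 0.85 in Ndufa1, -1.20 in Mvd, 0.55 in Pcna, -3.23 in Unc5b, -2.41 in Trib3 and 1.78 in Ppargc1a. What the runs stand for was not tested.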

How the results depend on the processing

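Under 16 alternatives and with each of 24 animals left out, no called contrast of a named gene turned its sign, 61 of 79 called genes kept their call with every animal left out, and 16 kept it under all alternatives that could be run on them (15 for Mup5 and Sult1c2al1, which the filter on dim genes removes). The counts moved more than the directions. With each animal left out, the number above 0 ran from 360 to 890, below 0 from 219 to 519, grown from 339 to 702, faded from 3 to 9 and sign changed from 233 to 680. Quantile normalization, median centring, the offset of 16, the mean over probe sets, the filter on dim genes, trended robust variance and the well column kept all 5 counts within 1.5 times. Array weights gave 952 above, 588 below, 15 faded and 742 sign changed. Well row as a random block gave 3 faded. Run within week as a covariate gave 311 above, 175 below, 307 grown, 2 faded and 177 sign changed. Taking 1 week from animals 49 to 54 gave 1778 above, 1090 below, 150 faded and 2213 sign changed, and from animals 74 to 79 it gave 232 above, 131 below, 132 grown, 25 faded and 206 sign changed. Taking 4 weeks from animals 22 to 32 gave 150 above, 92 below, 169 grown, 1 faded and 72 sign changed, and from 59 to 73 it gave 1 faded. In 2 alternatives chosen after seeing the data, leaving out 20% animals 51 to 53 at 1 week gave 235 below, 273 grown and 35 faded, and leaving out 77 to 79 gave 1198 above, 603 below, 74 faded and 1295 sign changed. The single-run and leave-out settings use fewer animals, and the cause of the other moves was not tested. No paired analysis was possible because animal numbers are unique to a group.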
